A study of Homo sapiens with 6 samples.

Results

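The data on hsa-miR-21-5p and hsa-miR-21-3p, the 2 mature strands cut from the miR-21 precursor, were taken from 6 miRNA arrays with 2565 miRNA probes each. The members were found on the array by their names, and each had 1 probe with 1 spot per array. RNA came from Panc-1, a human cell line derived from pancreatic ductal adenocarcinoma (PDAC). The 3 control arrays held RNA of cells given TGF-β at 0 ng/mL, and the 3 TGF-β arrays held RNA of cells given 10 ng/mL, both for 72 h, a treatment used to induce the epithelial-mesenchymal transition (EMT). Nothing in the labels states whether the 3 samples of a group were separate cultures, so that p-values measure the spread between these samples, which may be technical. By the file names, 1 slide held the control samples and another the treated samples, and an effect of the slide and one of the treatment cannot be told apart. Each sample is bulk RNA of 1 line, so fewer expressing cells and less RNA per cell cannot be told apart either.

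A miRNA precursor is a hairpin whose arms give a guide strand, which is loaded into Argonaute and represses mRNAs that pair with its seed, and a passenger strand, which is mostly degraded. For miR-21 the guide is the 5p arm. It is among the miRNAs most often described as raised in carcinomas, PDAC included, and represses tumor suppressors such as PDCD4. SMAD proteins, which carry the TGF-β signal, have been described to bind a short motif in the stem of its primary transcript and to promote its processing by DROSHA, so miR-21 is a miRNA for which a rise with TGF-β has been described in other cells. The comparison here asks whether either strand, or the ratio between them, differed between TGF-β and control in Panc-1 cells.

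MIR21 lies on the plus strand at chr17:59841266-59841337 of GRCh38.p14, inside the interval of the protein-coding gene VMP1 (chr17:59707654-59842255), 918 bases before its end. The array files carry no coordinates or probe sequences, and sequences are those of RefSeq. The hairpin of 72 bases is shown with the 5p strand, bases 8 to 29, in capitals, to show where the guide sits in its precursor. The mature 5p strand (chr17:59841273-59841294) is then shown with its seed, bases 2 to 8, in capitals, beside miR-590-5p (chr7:74191213-74191234), the other miRNA with the same seed among the 2253 of 2565 array names that matched a sequence. In the last line the capitals mark the SMAD motif, CAGAC, at bases 9 to 13 of the 5p strand.
MIR21 hairpin: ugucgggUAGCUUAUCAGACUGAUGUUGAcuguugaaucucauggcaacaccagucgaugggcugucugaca
miR-21-5p seed: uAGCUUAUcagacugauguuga
miR-590-5p seed: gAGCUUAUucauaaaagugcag
miR-21-5p motif: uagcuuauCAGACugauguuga

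miR-21-5p was one of the brightest miRNA probes on every array. Its spot signal was 18373, 20333 and 25471 intensity units on control arrays 1, 2 and 3. It was 19398, 20130 and 20247 units on TGF-β arrays 1, 2 and 3. The groups overlapped, since the TGF-β arrays lay inside the range of the control arrays. The blank spots, which carry no probe, had means of 18.2 to 21.3 units, far below the miR-21-5p signal, while the scanner's local background around the spot was a much larger part of it and is given further on.

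By signal above the blank mean, miR-21-5p ranked 5 of 2565 on control array 1 and 4 on each of the 5 other arrays. It gave 5.60% to 6.17% of the summed signal of the miRNAs detected on an array, where detection was a signal above the blank mean plus 2 SD. Its level relative to the median of the 1282 miRNAs detected on all 6 arrays, used below as the unit of level, was 1976 to 2224 times that median. Probes differ in how brightly they label and bind, so ranks between probes describe spot brightness and not the number of molecules.

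miR-21-3p was detected on every array, but was far dimmer. Its spot signal was 59.6, 68.0 and 92.6 units on control arrays 1, 2 and 3 and 77.0, 77.6 and 66.0 units on TGF-β arrays 1, 2 and 3. In units of the blank SD, it lay 63.4 to 111 above the blank mean. The passenger strand was thus well detected on all 6 arrays, with overlapping groups. It ranked 260 to 305 of 2565 on single arrays and 281 by its mean level, which put it within the brightest 11.9% of probes on each array.

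**Figure D1:**
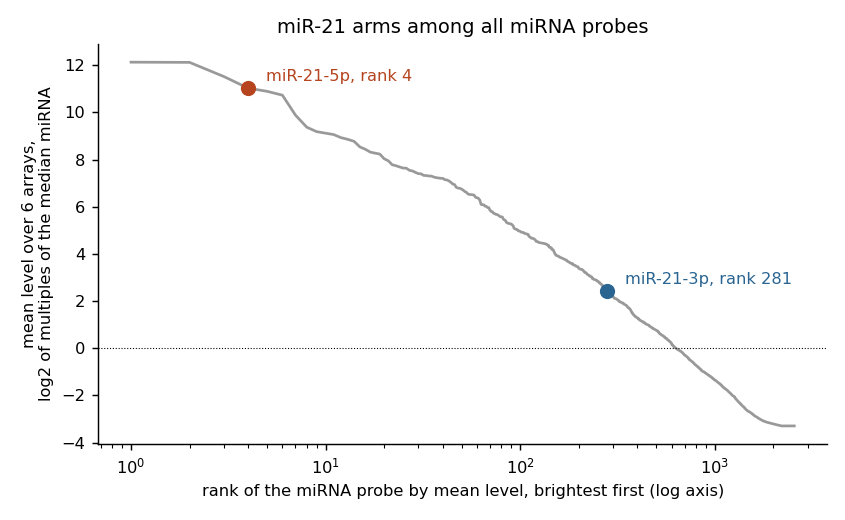
Mean level of each of 2565 miRNA probes over the 6 arrays (vertical axis, log2 of multiples of the median miRNA detected on all arrays) against its rank (horizontal, log axis). miR-21-5p had rank 4 and miR-21-3p rank 281, both above the dotted line of the median miRNA.

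The probes around miR-21-5p in this order differed in how clearly they stood apart from it. miR-4454, the brightest by mean level and named after its rank was seen, was brighter on all 6 arrays, by 1.10 ± 0.20 on the log2 scale (SD over 6 arrays). miR-7975 was brighter by 1.09 ± 0.11 and miR-7977 by 0.49 ± 0.11, each on all 6 arrays. Just below, miR-4284 was dimmer by only 0.13 ± 0.11 and was brighter than miR-21-5p on 1 of 6 arrays, so these neighbours were close to their spread. miR-5100 was dimmer by 0.30 ± 0.18 on all 6 arrays.

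The 3 probes brighter than miR-21-5p are named for sequences that all end in CCA, which is shown in capitals, a feature looked for after their rank was seen. CCA is also the 3′ end of mature tRNAs, and whether other RNAs added to these signals was not tested. Of the 2253 array miRNAs with a mature sequence in the table, 43 (1.91%) end in CCA. miR-4454 and miR-7975 share a run of 13 bases, and the longest run that miR-21-5p shares with any of the 3 is 3 bases.
miR-4454 (chr4:163093607-163093626, minus strand): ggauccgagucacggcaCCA
miR-7975 (chr19:55123225-55123242, minus strand): auccuagucacggcaCCA
miR-7977 (chr3:176515103-176515120, plus strand): uucccagccaacgcaCCA

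Around miR-21-3p the order was not resolved. miR-665, miR-4505 and miR-6868-5p, with mean ranks of 279, 280 and 282, were each brighter than miR-21-3p on 3 of 6 arrays, and their mean differences from it (0.04, 0.01 and -0.02 on the log2 scale) were smaller than the SDs of those differences (0.22, 0.25 and 0.29). The next below, miR-432-5p, had a flagged spot on 1 array and was not compared.

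Saturation was looked for first, because a probe at the ceiling of the scanner would hide any change. Each array was read at 3 gains, and per the file headers a line fitted by least squares relates gains 2 and 3 to gain 1 (r2 0.999575 to 0.999885). Only 6 to 8 spots per array had whole-number values, all at or above 10324 units, while all other spots had fractions and reached at most 9730 units. A 16-bit reading ends at 65535, which through the header lines is 10299 to 11610 units at gain 2 and 2764 to 3158 units at gain 3. The number of bits is not given in the files, but whole numbers thus appeared from about the level where gain 2 would run out. miR-21-5p was a whole number on all 6 arrays, as for a direct reading at gain 1, and on the header lines it would have read 114979 to 143845 at gain 2.

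At gain 1 miR-21-5p stood at 28.04% to 38.9% of 65535, and no miRNA spot reached that value on any array. The brightest miRNA spot of an array had 39107 to 53750 units. No sign of saturation of the scanner was therefore found for miR-21-5p, and its values were treated as measured and not as bounds. Saturation of the probe itself by bound RNA was not tested. miR-21-3p had fractional values, equal to 1120 to 1681 units of gain 3 on the header lines, also far from that ceiling. No spot of either strand carried a flag.

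**Figure D2:**
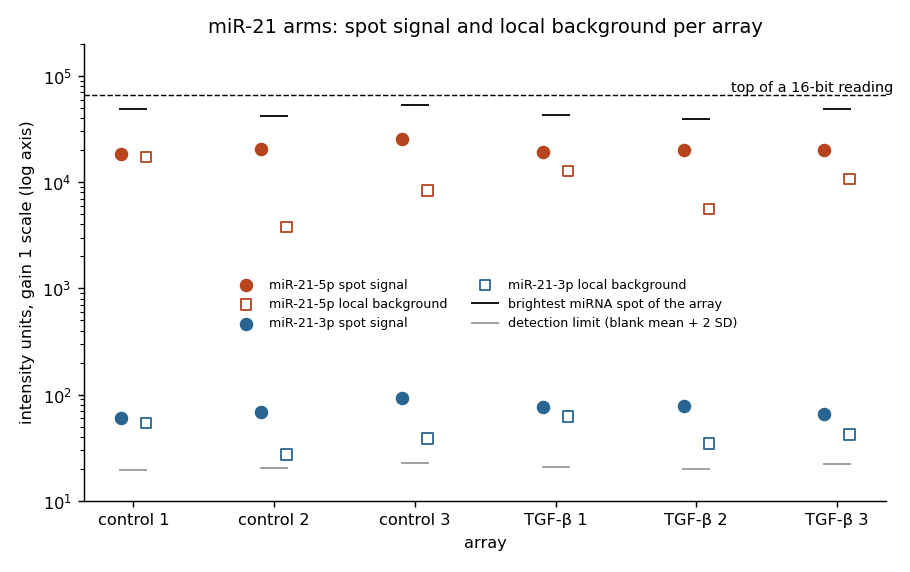
Spot signal (filled circles) and local background (open squares) of miR-21-5p (red) and miR-21-3p (blue) on each array, in intensity units on a log axis, with the brightest miRNA spot (black dash), the detection limit (grey dash) and the top of a 16-bit reading (dashed line). miR-21-5p lay below the brightest spot and below 65535 on all 6 arrays, and its local background ranged from 3791 to 17283 units.

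The local background given for the miR-21-5p spot varied widely between arrays. It was 94.1%, 18.6% and 32.9% of the spot's own signal on control arrays 1, 2 and 3 and 65.8%, 27.8% and 52.9% on TGF-β arrays 1, 2 and 3. For miR-21-3p the shares were 90.9%, 39.96% and 41.5%, and 80.4%, 44.5% and 63.9%. Both strands had their largest share on control array 1. The spot of miR-506-3p, chosen for its position directly beside that of miR-21-5p in the next row, had a local background of only 14.3 to 18.8 units and a signal of 19.7 to 23.8 units, close to the blank spots. The spots on either side in the same row had higher local backgrounds, of 605 to 1614 units for miR-20a-5p (spot signal 1377 to 2124 units) and of 79.4 to 230 units for miR-92a-3p (spot signal 222 to 255 units). These 3 spots were chosen for their position, and the local background was higher around the brighter of them.

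Subtracting the local background left between 1090 units (control array 1) and 17092 units (control array 3) for miR-21-5p, a 15.7-fold range within 1 group, compared with a 1.39-fold range over all 6 arrays after subtraction of the blank mean. For miR-21-3p the remainder was 5.45 to 54.2 units. The blank mean was used as background. In what follows, the local background as a setting means normexp with an offset of 50 units, which is added to every spot. With that setting, the rank by mean level was 5 for miR-21-5p and 238 for miR-21-3p.

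With TGF-β, miR-21-5p did not differ from control beyond the spread between arrays. Its level was 11.06 ± 0.09 on the log2 scale for control and 10.998 ± 0.048 for TGF-β (mean ± SD, n = 3 each). The difference was -0.07 (standard error 0.12, limma adjusted p = 0.937), a fold of 0.956 with a 95% interval of 0.797 to 1.15. In this setting a rise larger than 1.15-fold thus lay outside the interval, and a smaller change in either direction could not be told from none. None of the 3 TGF-β arrays was above the highest control array.

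miR-21-3p did not differ beyond the spread either. Its level was 2.41 ± 0.24 on the log2 scale for control and 2.46 ± 0.24 for TGF-β (mean ± SD, n = 3 each). The difference was 0.05 (standard error 0.14, limma adjusted p = 0.952), a fold of 1.04 with a 95% interval of 0.847 to 1.27. In both groups the level of single arrays ranged over more than the difference between the groups, and 1 of 3 TGF-β arrays was above the highest control array. With the local background the log2 difference of miR-21-3p was -0.12. Exact permutation tests (2-sided) gave p = 0.3 for miR-21-5p and p = 0.7 for miR-21-3p, where 3 arrays against 3 allow no p below 0.1.

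Of the 2 strands, 0 were called at an adjusted p under 0.05 in limma, and 0 had an unadjusted p under 0.05, which 182 of all 1457 tested miRNAs had. Among those 1457, 49 (3.36%) were called, 37 (2.54%) higher and 12 (0.824%) lower in TGF-β-treated cells. With the local background limma called 0 (21 at an unadjusted p under 0.05), so none of the calls given here and below held in that setting, while 42 were called with no background correction. The groups did not overlap for 252 of the 1455 miRNAs measured on every array (17.3%), and for 0 of the 2 strands. The size of the difference was larger than that of miR-21-5p for 74.4% of the tested miRNAs and larger than that of miR-21-3p for 79.5%. miR-21-5p varied little in comparison with other bright probes in the main setting: its SD over the 6 arrays was 0.08 on the log2 scale, the rank 2 from the lowest among the 20 brightest probes, which ranged from 0.05 to 0.33. This holds for the blank mean as background, since with the local background the SD of miR-21-5p was 1.43. With the blank mean, the SD of miR-21-3p was 0.21, compared with a median of 0.15 over the 201 probes within 100 ranks of it.

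The direction of these small differences depended on the setting. For miR-21-5p the log2 difference was 0.04 both when each array was scaled on the median of its own detected miRNAs and in the deposited values. These scalings moved the median of all tested miRNAs to 0.12 and 0.11, and relative to those medians the difference was -0.08 and -0.07, compared with -0.08 in the main setting. Quantile normalization gave 0.03. It left nearly the same value (14.33 on the log2 scale) on the 5 arrays where miR-21-5p had rank 4, since it assigns values by rank, and so could not show a change of a probe that keeps its rank. The local background gave 0.47 with a standard error of 1.00 (adjusted p = 1.00 from limma). In the deposited values, miR-21-5p was 83006 ± 6427 for control and 85366 ± 9361 for TGF-β (mean ± SD, n = 3 each), and miR-21-3p was 207 ± 34.6 and 233 ± 52.4. The differences on that scale too were smaller than the SDs.

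**Figure D3:**
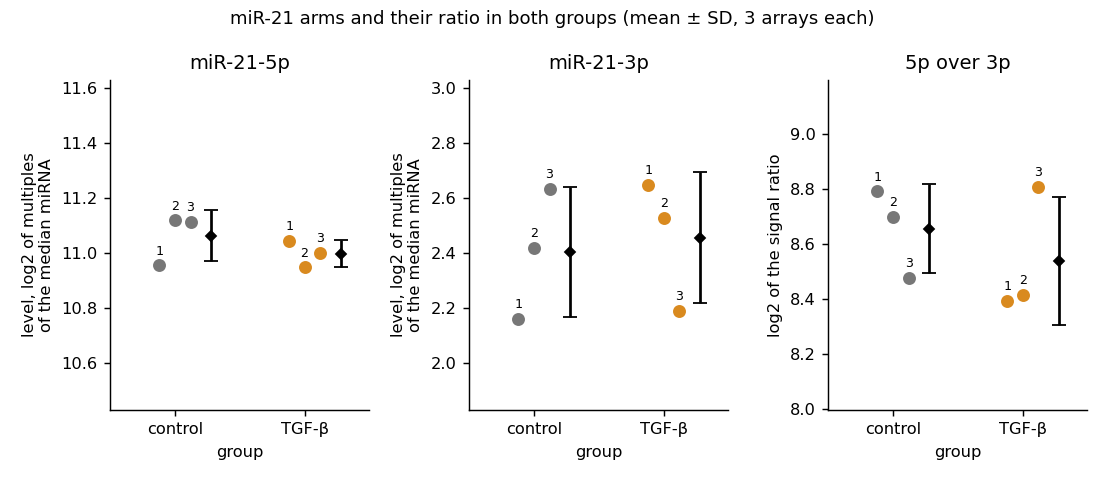
Levels of miR-21-5p and miR-21-3p (log2 of multiples of the median miRNA) and log2 of their signal ratio on each array (numbered circles) in control and TGF-β-treated cells, with mean ± SD of 3 arrays (diamonds); each panel spans 1.2 units. The groups overlapped in all 3 panels.

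The guide gave far more signal than the passenger on every array. The ratio of the 5p to the 3p signal above the blank mean was 443, 416 and 357 on control arrays 1, 2 and 3. It was 337, 342 and 448 on TGF-β arrays 1, 2 and 3. Control array 1 and TGF-β array 3 had the highest ratios, and these were the arrays on which miR-21-3p was lowest. With the local background (normexp, offset 50) the mean log2 ratio was lower, 6.14 for control and 6.73 for TGF-β, compared with 8.66 and 8.54 with the blank mean. That setting also adds 50 units to every spot, whereas plain subtraction of the local background left 5.45 to 54.2 units of miR-21-3p. The size of the ratio thus depended on the setting, and the parts of background and offset in it were not separated.

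A ratio within an array does not depend on how the array is scaled, but it does depend on both probes, so only its difference between groups was tested. The log2 ratio was 8.66 ± 0.16 for control and 8.54 ± 0.23 for TGF-β (mean ± SD, n = 3 each). The difference was -0.12 (standard error 0.16, 95% interval -0.49 to 0.25, adjusted p = 0.959 from limma over 321 precursors with both arms detected on all arrays), and the exact permutation test (2-sided) gave p = 0.6. Of the 321 ratios, limma called 0 (0%), with 18 at an unadjusted p under 0.05, and the groups did not overlap for 34 (10.6%), miR-21 not among them. With the local background the difference in the log2 ratio was 0.59 (standard error 4.07).

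Among those 321 precursors miR-21 had one of the highest ratios of 5p to 3p signal. Its mean log2 ratio of 8.60 ranked 3 in that direction, and 5 by size in either direction. Above it toward 5p were let-7a (9.10) and miR-4723 (8.90), and next below was miR-196a (7.92). It ranked 3 on 5 arrays and 2 on control array 1, and was first on none. Over the 6 arrays miR-21 ranged from 8.40 to 8.81, let-7a from 8.60 to 9.76, miR-4723 from 8.57 to 9.49 and miR-196a from 7.62 to 8.12. The 5p signal was the brighter one for 197 precursors (61.4%), and the median size of the ratio in either direction was 3.84-fold.

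**Figure D4:**
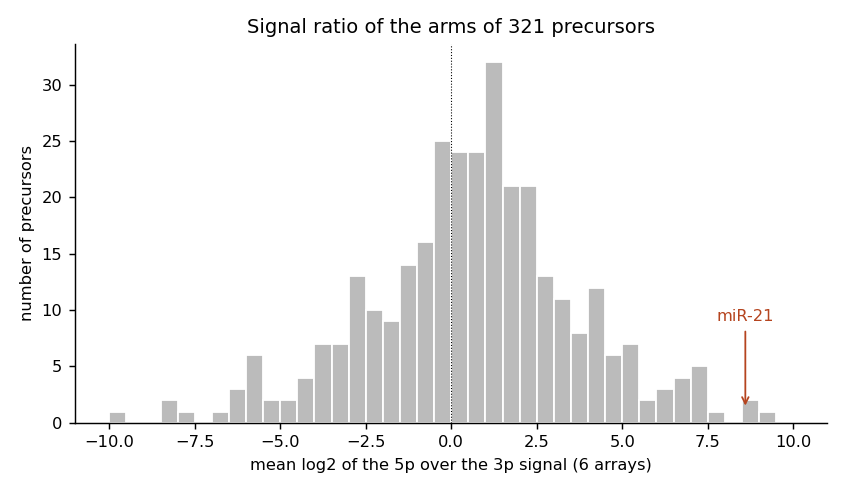
Number of precursors (vertical axis) by mean log2 ratio of the 5p to the 3p signal over 6 arrays (horizontal axis, dotted line at equal signals), for 321 precursors with both arms detected on all arrays. miR-21, at 8.60, lay at the right end with 2 precursors above it.

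miR-590-5p, which has the same seed as miR-21-5p but is transcribed from another locus, was much dimmer and was not called. Its signals were 88.9, 99.95 and 140 units on control arrays 1, 2 and 3 and 118, 122 and 108 units on TGF-β arrays 1, 2 and 3. It ranked 215 by mean level, and its log2 difference was 0.16 (standard error 0.12, adjusted p = 0.678 from limma). Cross-hybridization between these 2 miRNAs was not tested.

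CAGAC is present in 41 (1.82%) of the 2253 array miRNAs with a sequence. Apart from miR-21-5p, 40 miRNAs hold it, of which 18 were tested. Of these, 0 were called in either direction by limma, 9 were above 0, and the median log2 difference was -0.002, compared with 0.01 over all tested miRNAs. With 3.36% of all tested miRNAs called in either direction, a count of 0 among 18 says little about miRNAs that hold the motif. The 3 brightest were miR-421 (-0.18), miR-214-3p (-0.01) and miR-215-5p (-0.08), none of them called. Most of the others were close to the background, with 14 of the 40 detected on all 6 arrays. miR-105-5p, which holds the motif, was also the miRNA whose level over the 6 arrays was most like that of miR-21-3p. Its signal was only 19.6 to 24.1 units, close to the detection limits of 19.5 to 22.8 units. That correlation was the highest of 1281 over 6 points, and a link to the motif was not tested.

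A list of 14 miRNAs that the literature links to a rise under TGF-β did hold called members. The list was chosen with earlier results of these data known, so its counts are a description and not independent support. All 14 were tested, and limma called 3 higher and 0 lower, with a median log2 difference of 0.30 and 11 above 0. Over all 1457 tested miRNAs, 2.54% were called higher and 0.824% lower, and the median was 0.01. miR-181a-5p rose by 1.24 (standard error 0.10, adjusted p = 1.02e-07 from limma). miR-181b-5p rose by 1.31 (standard error 0.10, adjusted p = 1.02e-07) and the dim miR-143-3p by 1.60 (standard error 0.38, adjusted p = 0.0193). The 3 brightest of the list, miR-24-3p, miR-23a-3p and miR-27a-3p, had differences of 0.30, 0.32 and 0.30 that were not called (adjusted p = 0.184, 0.143 and 0.179 from limma). The differences of miR-21-5p and miR-21-3p were smaller in size than those of the called members. Since the called members were picked by the same fit, this says little about the strands, and no test of that contrast was made.

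Of 12 other miRNAs commonly described as raised in PDAC, 11 were on the array under that name and all 11 were detected on all 6 arrays. The brightest were miR-23a-3p, miR-27a-3p and miR-31-5p, with mean ranks of 13, 17 and 18, all below that of miR-21-5p. limma called 2 of the 11 higher, miR-31-5p with a log2 difference of 0.55 (standard error 0.11, adjusted p = 0.00504) and miR-100-5p with 0.77 (standard error 0.11, adjusted p = 0.000148), and 0 lower. The median log2 difference was 0.14, with 8 above 0, compared with 2.54% called higher and a median of 0.01 over all tested miRNAs. This list too was chosen with earlier results of these data known. As markers of other cells, miRNAs of blood, liver, neurons and of acinar and islet pancreas were checked. Of these 9, only miR-142-3p was detected on all 6 arrays, at 20.5 to 29.1 units. The blood markers miR-451a, miR-223-3p and miR-144-3p were detected on 5, 4 and 3 arrays, the liver marker miR-122-5p on 3 and the neuronal miR-124-3p on 2. Of the pancreas markers, the acinar miR-216a-5p and miR-217 were detected on 2 and 0 arrays and the islet miR-375 on 1. These 8 reached at most 24.4 units. Their part in the results was not tested.

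The miRNAs whose levels followed those of the strands most closely over the 6 arrays were dim ones. For miR-21-5p they were miR-4676-5p (Pearson 0.94), miR-6887-3p (0.92) and miR-4425 (0.89), and for miR-21-3p they were miR-105-5p (0.96), miR-1244 (0.95) and miR-376c-5p (0.94). Spearman correlations were 0.94, 1.00 and 0.94, and 1.00, 0.94 and 0.83. All 6 had mean levels below the median miRNA. These were the highest of 1281 correlations over 6 points that share the scaling of each array, and are given as a description. The strands themselves had a correlation of 0.48 (Spearman 0.31) with each other.

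**Figure D5:**
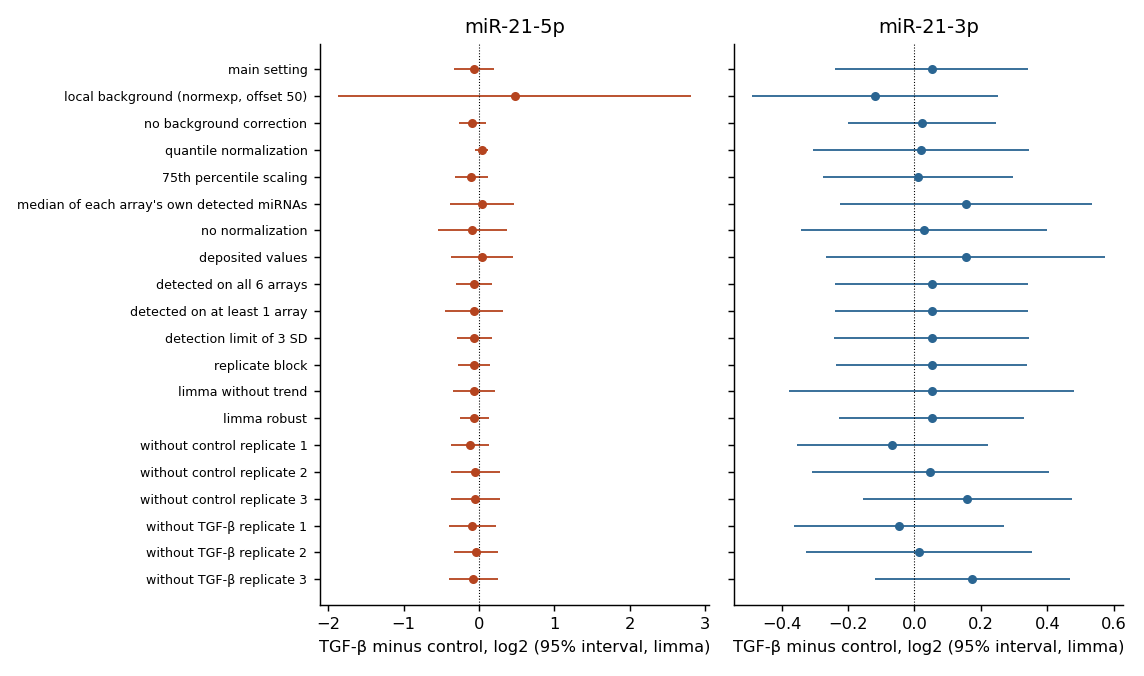
Log2 difference of TGF-β minus control for miR-21-5p (left) and miR-21-3p (right) with its 95% interval from limma, in the main setting and under each alternative; the horizontal axes differ in range. Every interval included 0, and for miR-21-5p that with the local background was by far the widest.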

How the data were processed

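Cy5-labelled total RNA had been hybridized to 1-colour 3D-Gene arrays. The authors deposited, per array, the median intensity of 3200 spots and of their local background, without normalization, and a table of processed intensities on a linear scale. That table was rebuilt from the scanner values with 0 differences: mean of 320 blank spots with 5% left out at each end subtracted, the median detected miRNA set to 25, undetected values empty. Its making and that of the scanner values beyond the file headers is not given in the sources used here.

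Here the same blank mean was subtracted, values were set to at least 1, log2 transformed and centred on the median of the miRNAs detected on all 6 arrays. Only 3 flagged miRNA spots were set as missing. The comparison used limma 3.58.1 (R 4.3.3, intensity trend, Benjamini-Hochberg over the 1457 miRNAs that all 3 arrays of either group detected) and exact permutation tests. Figures were drawn with matplotlib 3.10.9 (Python 3.11.15). The procedure was tested on simulated data with changes far larger than the differences of the strands and without an effect of the slide. That test therefore does not bear on changes as small as theirs. Members, lists and settings were chosen with earlier results of these data known. The blank background replaced normexp on the local background, which was 18.6% to 94.1% of the miR-21-5p signal, and scaling replaced quantile normalization, which pins bright probes by rank. Named miRNAs were the strands, the 2 neighbours on each side in rank, those with the same seed, the 3 with the highest correlation, and called or brightest list members. Outside that rule, miR-4454 (rank), let-7a, miR-4723 and miR-196a (arm ratio), miR-506-3p, miR-20a-5p and miR-92a-3p (spot position), miR-203a-3p (list name), and the markers of other cells were named after their values were seen. The number of arrays limits the precision.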

Additional observations from a re-analysis of the deposited data

How the results depend on the processing

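Neither strand nor their ratio passed the threshold under any alternative (adjusted p 0.747 to 1.00 for miR-21-5p, 0.721 to 1.00 for miR-21-3p and 0.811 to 1.00 for the ratio, all from limma or the methods' test of means). Their signs, which rest on differences smaller than the error, changed as follows. With the local background the log2 differences were 0.47 for miR-21-5p, -0.12 for miR-21-3p and 0.59 for the ratio, the rank by mean level was 5 for miR-21-5p and 238 for miR-21-3p, and 0 miRNAs were called (21 at an unadjusted p under 0.05). With quantile normalization miR-21-5p gave 0.0333 and the ratio 0.0151. miR-21-5p gave 0.0378 both with the median of each array's own detected miRNAs and with the deposited values. With each array left out in turn, miR-21-5p lay between -0.12 and -0.04, miR-21-3p between -0.0668 (without control replicate 1) and 0.17, with -0.0459 without TGF-β replicate 1, the ratio between -0.25 and -0.04, and the count of calls between 37 and 44. The count, 49 in the main setting, was 31 with the deposited values, 26 without the trend and 14 with the methods' test of means. Its split moved too, from 37 higher and 12 lower in the main setting to 38 and 20 with quantile normalization and 27 and 4 with the deposited values. With the replicate block the count was 71, and the strands gave -0.07 and 0.05 (adjusted p 0.851 and 0.929 from limma), so the block changed no call of theirs. Same-numbered arrays, which share a slide position, had correlations of deviations of 0.13, 0.12 and -0.03, so the numbers were not counted as pairs. For the strands and their ratio, all other alternatives that were run kept the direction and the side of the threshold.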
